A study of Mus musculus with 4 samples.

Results

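The ubiquitin-proteasome system was followed through 116 genes of the mouse array, out of 8251 genes that the platform annotation pairs with a probe set carrying 1 symbol. Members were chosen by name alone: symbols of the 20S core, the 19S cap, the proteasome activators and the assembly factors (Psma to Psmg), of the ubiquitin-conjugating E2 enzymes (Ube2), of the ligase Ube3a, of the cullins (Cul1 to Cul7), of the F-box proteins (Fbx) and of the deubiquitinases (Usp and Uch). Psmb8, Psmb9 and Usp9y were left out, and each gene was read from the probe set with the highest mean signal over the 4 arrays. The result was 44 proteasome genes and 72 conjugation, ligase and deubiquitinase genes. Psmc3ip, a cofactor of meiotic recombination, and Psme3ip1, a partner of the PA28-gamma activator, share the Psm name and were counted with the 44, although neither is a part of the proteasome.

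The 4 Affymetrix MG_U74Av2 arrays, each hybridised with total RNA of 1 culture, set embryonic stem (ES) cells against extraembryonic endoderm (XEN) cells, stem cell lines of the lineage that forms the yolk sac endoderm. The ES sample was undifferentiated R1 ES cells on gelatin with LIF, the cytokine that keeps them undifferentiated. IM8A1-I was the XEN line IM8A1 at passage 27, of PO strain, on gelatin in 70% EMFI-CM, and IM8A1-II was the same line at the same passage, moved to tissue culture plastic and RPMI 1640 with 20% FBS for 4 days. XEN1-3 was a XEN line of ICR strain at passage 18, on gelatin in 70% EMFI-CM. The labels give no strain or passage for the R1 cells.

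Ubiquitin is a small protein that cells attach to other proteins as a tag. An activating enzyme (E1) passes it to a conjugating enzyme (E2), and a ligase (E3) brings the E2 to its substrate; cullins are the scaffolds of a large family of such ligases, and F-box proteins are the substrate receptors of the ligases built on Cul1 and its adaptor Skp1. Deubiquitinases remove or trim the tag. Proteins that carry ubiquitin chains are recognised by the 19S cap of the proteasome, unfolded by the ring of ATPases at its base, and cut inside the barrel of the 20S core, whose outer rings are alpha subunits and whose inner rings are beta subunits. In stem cells the system sets the lifetime of cell cycle regulators and of transcription factors.

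All 4 arrays had been brought to the same overall level before deposit, with 2% trimmed means from 150.088 to 150.095, and between 59.6% and 60.5% of probe sets on each array reached 27.3 signal units, the background limit used here. The groups were checked against markers: all 6 ES markers, Pou5f1 and Nanog among them, fell in XEN cells, and all 7 XEN markers, Gata4 and Sox17 among them, rose. Chip lot and run day were shared by the 3 XEN arrays and were others for the ES array, so cell type, chip lot and run day cannot be told apart. Cell line and culture condition also differed between the ES array and every XEN array, and cannot be told apart from cell type either. The run record of IM8A1-II holds the note DIFF, and that of XEN1-3 holds a message about undetected fluid. ES cells had 1 array, which is assumed to vary like the XEN arrays, and 2 of the 3 XEN cultures were 1 line, so p-values measure the spread between these cultures. The number of arrays limits the precision of every value below. XEN values are given in the order IM8A1-I, IM8A1-II, XEN1-3.

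The first question was whether the proteasome itself differed between XEN and ES cells. The RNA signal of the core subunits lay lower in XEN cells: all 15 subunits of the 20S core had a lower signal in each of the 3 XEN cultures than in ES cells. Their log2 differences ran from -1.12 to -0.47, with a median of -0.74. Over the 44 proteasome genes, 33 (75%) were lower in all 3 XEN cultures and 3 (6.82%) were higher in all 3, against 34% and 39% of all 8582 tested probe sets. The median log2 difference of the 44 was -0.66, and by culture it was -0.69 (IM8A1-I), -0.66 (IM8A1-II) and -0.60 (XEN1-3), beside 0.05 over all tested probe sets. Single genes rarely passed the test: by limma, with Benjamini-Hochberg adjustment over all tested probe sets, 1 of the 44 fell (Psmd5) and 0 rose, against 5.05% and 5.58% of all tested probe sets. Of the 15 core subunits 0 passed. At an unadjusted p under 0.05, 17 of the 44 were lower and 0 were higher, against 14.5% and 15.1% of all tested probe sets.

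Differences are given on the log2 scale of the signal plus 10.5 units, an offset that damps the noise of dim probe sets and understates the change of dim genes. Testing required 1 array or more at the background limit, and a gene was called at an adjusted p under 0.05. Leaving out 1 XEN culture also changed how many probe sets were called over the whole array, as the last section gives. For XEN against ES, shares of members are of all genes of a list, tested or not, with 1 probe set per gene. The background shares are of all tested probe sets. Over all probe sets, tested or not, 31.0% lay lower and 37.0% higher in all 3 XEN cultures. Of the 44 proteasome genes 42 were tested. The exceptions were Psmc4, a 19S ATPase, and Psmd2, the 19S subunit that docks ubiquitin carriers, which were below the limit on every array. In bulk cultures, fewer cells of a type and less RNA per cell cannot be told apart.

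**Figure D1:**
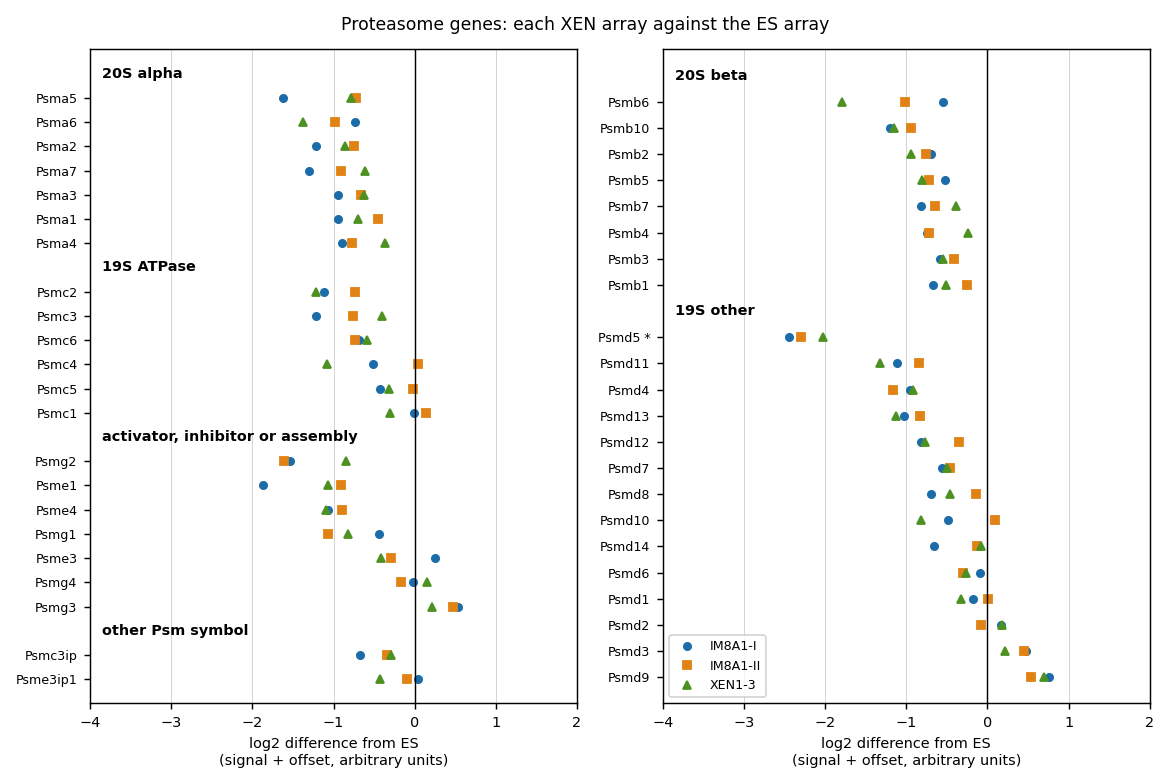
Log2 difference from ES (horizontal axis, signal plus offset) of each proteasome gene (1 line per gene, grouped by role), with 1 point for each XEN culture; the vertical line at 0 is the ES level and an asterisk marks Psmd5, the gene called lower. All points of the 15 core subunits lie below 0, and the points of Psmd5 lie farthest to the left, around its mean of -2.26.

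Psmd5 was the proteasome gene that fell. It encodes a chaperone that binds the ATPase Psmc2 while the base of the 19S cap is assembled and that is not part of the finished proteasome. It gave a signal of 928 in ES cells, and 162, 180 and 220 in the XEN cultures. All 3 XEN values lay far below the ES value and close to each other. The mean of the XEN cultures was 187 ± 29.9 (SD, n = 3), which is 79.8% below ES, and the log2 difference was -2.26 ± 0.29 (SE; limma adjusted p = 0.0127). The call held in each of 15 settings of the processing, with adjusted p-values from 0.00350 to 0.0433. Psmc2, the ATPase that Psmd5 binds, gave 734 in ES cells and 331, 437 and 308 in the XEN cultures, a log2 difference of -1.03 ± 0.31 that missed the threshold (limma adjusted p = 0.0901).

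The promoters of 3 proteasome genes are shown because Psmd5 is the one that passed the test, and because Psmb5 and Psmb6, the core subunits with chymotrypsin-like and caspase-like activity, carry the antioxidant response core TGACNNNGC, the letters bound by the proteasome regulator Nfe2l1 and by Nfe2l2 with their partners. Each runs from 250 bases before to 50 bases after the RefSeq start (build GRCm38.p6), 5′ to 3′ along the gene, with that core in capitals. Psmd5 lies at chr2:34870913-34871212, minus strand, Psmb5 at chr14:54617946-54618245, minus strand, and Psmb6 at chr11:70525107-70525406, plus strand.
Psmd5: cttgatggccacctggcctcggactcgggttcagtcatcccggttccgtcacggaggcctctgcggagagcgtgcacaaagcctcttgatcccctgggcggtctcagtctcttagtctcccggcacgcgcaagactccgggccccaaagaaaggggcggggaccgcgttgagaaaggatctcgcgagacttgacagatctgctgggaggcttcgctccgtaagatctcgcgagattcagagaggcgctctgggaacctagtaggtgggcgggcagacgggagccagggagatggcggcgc
Psmb5: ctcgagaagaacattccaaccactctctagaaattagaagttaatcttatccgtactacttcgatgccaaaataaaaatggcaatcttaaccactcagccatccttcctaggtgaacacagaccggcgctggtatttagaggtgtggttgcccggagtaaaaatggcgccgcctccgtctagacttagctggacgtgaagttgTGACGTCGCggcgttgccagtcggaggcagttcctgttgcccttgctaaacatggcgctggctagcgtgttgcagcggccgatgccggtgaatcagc
Psmb6: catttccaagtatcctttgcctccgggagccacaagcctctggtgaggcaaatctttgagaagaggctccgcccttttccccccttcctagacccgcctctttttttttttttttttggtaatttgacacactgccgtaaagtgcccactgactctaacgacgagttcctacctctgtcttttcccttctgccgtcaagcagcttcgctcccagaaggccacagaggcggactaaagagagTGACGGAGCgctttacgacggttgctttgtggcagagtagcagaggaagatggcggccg
The core in Psmb5 begins at position -47 from the start and that in Psmb6 at -9, and the Psmd5 window holds 0. Over the 40 promoter windows that RefSeq gave for 37 of the proteasome genes, 6 (15.0%) held the core on either strand, against 12.39% of all 32851 windows. The octamer ATGCAAAT, bound by Pou5f1, was in 2.5% of the proteasome windows and 1.735% of all windows, and the Sox motif ACAAAG in 10.0% and 18.71%. The proteasome genes lie on 16 chromosomes. A match is a run of letters, and its use in these cells was not measured. Nfe2l1 itself gave 439 in ES cells and 990, 813 and 773 in the XEN cultures (log2 difference 0.94 ± 0.28, limma adjusted p = 0.0877), and Nfe2l2 gave 355 in ES cells and 223, 274 and 207.

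Among the alpha subunits, which form the gate of the barrel, all 7 lay lower in each XEN culture, with log2 differences from -1.05 (Psma5) to -0.68 (Psma4) and a median of -0.94. Psma2 gave 2393 in ES cells and 1019, 1418 and 1318 in the XEN cultures. The XEN values stayed near each other and well below ES, and the log2 difference of -0.94 ± 0.29 missed the threshold (limma adjusted p = 0.0981). Psma3 gave 3243 in ES cells and 1681, 2045 and 2100 in the XEN cultures, and Psma6 gave 2299 against 1371, 1157 and 876. Their order among the XEN cultures differed: IM8A1-I was lowest for Psma3, and XEN1-3 for Psma6. Psma5 ranged within XEN cells from 414 in IM8A1-I to 783 in IM8A1-II, below the 1299 of ES cells throughout.

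All 8 beta subunits also lay lower in each XEN culture, from -1.12 (Psmb6) to -0.47 (Psmb1), with a median of -0.65. Psmb5, the chymotrypsin-like protease and the target of proteasome inhibitors, gave 952 in ES cells and 657, 575 and 538 in the XEN cultures (limma adjusted p = 0.158). Psmb6, the caspase-like protease, gave 1292 in ES cells and 883, 635 and 365 in the XEN cultures, with XEN1-3 well below the other cultures (adjusted p = 0.199). Psmb7, the trypsin-like protease, gave 1355 in ES cells and 760, 861 and 1035 in the XEN cultures, so the order of the XEN cultures was the reverse of that of Psmb6. None of the 3 passed the test, and for none did a XEN value reach the ES value. A second Psmb1 probe set overlapped between the groups, with 622 in ES cells and 348, 531 and 651 in the XEN cultures. A second Psmb5 probe set was near the background limit, at 54.4 in ES cells and 50.4, 77.2 and 78.5 in the XEN cultures, and did not follow the first.

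Psmb10, the beta subunit that replaces Psmb7 in the immunoproteasome and responds to interferon, gave 212 in ES cells and 86.4, 105 and 89.8 in the XEN cultures. The log2 difference of -1.10 ± 0.28 was just short of the threshold (limma adjusted p = 0.0613). Its adjusted p was 0.150 without IM8A1-I, 0.111 without IM8A1-II and 0.0497 without XEN1-3. Leaving out XEN1-3 keeps 2 cultures of 1 line, and the calls over all probe sets then came to 797 higher and 725 lower. Psme1, a subunit of the interferon-responsive PA28 activator, gave 351 in ES cells and 88.8, 182 and 162 in the XEN cultures (log2 difference -1.28 ± 0.43, adjusted p = 0.116). Both were lower in all 3 XEN cultures. Other interferon-responsive genes were read beside them. Of 9 on the array, 3 (33.3%) fell (Psmb8, Irf1 and Isg15) and 1 (11.1%) rose (B2m). Among all tested probe sets these shares were 5.05% and 5.58%. In all 3 XEN cultures 6 (66.7%) lay lower and 2 (22.2%) higher, against 34% and 39%. Of the 9, 3 were below the background limit on every array and 7 in all XEN cultures. Their summed signal was 713 in ES cells and 1561 to 2180 in XEN cells. B2m made up most of the XEN sum, with 192 units in ES cells and 1453 to 2110 in XEN cells. The part of interferon signalling in the Psmb10 and Psme1 values was not tested.

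The 19S cap was mixed. Of its 6 ATPases 4 (66.7%) lay lower in all 3 XEN cultures and 0 higher, against 34% and 39% of all tested probe sets. Their median log2 difference was -0.59. Psmc6 gave 2196 in ES cells and 1364, 1319 and 1456 in the XEN cultures (-0.67 ± 0.25, limma adjusted p = 0.138). Psmc1, by contrast, gave 441 in ES cells and 437, 488 and 354 in the XEN cultures, and Psmc5 gave 463 against 342, 457 and 369. The XEN values of Psmc1 were on both sides of ES, and the IM8A1-II value of Psmc5 was near it. The direction of the Psmc1 difference, -0.06, depended on XEN1-3 and was 0.07 without it.

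Of the 14 remaining cap genes 9 (64.3%) lay lower in all 3 XEN cultures and 2 (14.3%) higher, against 34% and 39% of all tested probe sets. Their median was -0.42. Psmd11, a lid subunit linked to proteasome assembly in pluripotent cells, gave 1318 in ES cells and 601, 732 and 521 in the XEN cultures (-1.09 ± 0.30, limma adjusted p = 0.0739). Psmd4, a receptor for ubiquitin chains, gave 937 in ES cells and 479, 413 and 490 in the XEN cultures (-1.01 ± 0.27, adjusted p = 0.0677). Neither passed, though the 3 XEN values of each were close together and below ES. Psmd14, the lid deubiquitinase that removes chains before degradation, differed less, with 600 in ES cells and 377, 547 and 567 in the XEN cultures. On the other side were Psmd3, a lid subunit, with 739 in ES cells and 1032, 1009 and 861 in the XEN cultures, and Psmd9, an assembly chaperone of the cap base, with 111 in ES cells and 196, 165 and 187. Neither passed the test (adjusted p = 0.385 and 0.171), although all 3 XEN values of each lay above ES. The Psmd9 probe set carries the suffix r, one of the suffixes that mark shared probes or relaxed rules of probe choice.

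Of 7 activator and assembly genes 4 (57.1%) lay lower in all 3 XEN cultures and 1 (14.3%) higher, against 34% and 39% of all tested probe sets. Psme4, the PA200 activator, which binds the core in the nucleus, gave 916 in ES cells and 430, 486 and 422 in the XEN cultures (-1.02 ± 0.26, limma adjusted p = 0.0630). Psmg2, a chaperone that helps build the alpha ring together with Psmg1, gave 346 in ES cells and 112, 106 and 187 in the XEN cultures (-1.33 ± 0.39, adjusted p = 0.0832). Its adjusted p was 0.179 without IM8A1-I, 0.168 without IM8A1-II and 0.0130 without XEN1-3, which leaves 1 line. Psmg1 gave 563 against 413, 262 and 314. The partner chaperones of a second assembly complex stood elsewhere: Psmg3 gave 133 in ES cells and 198, 189 and 156 in the XEN cultures, and Psmg4 gave 216 against 212, 191 and 241. The nuclear activator Psme3 overlapped between the groups, with 572 in ES cells and 681, 466 and 426 in the XEN cultures.

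Across arrays, ES cells had the highest signal for 33 of the 44 proteasome genes, and IM8A1-I the lowest for 20, XEN1-3 for 14 and IM8A1-II for 7. Of 10 proliferation genes 8 lay lower and 1 (Aurkb) higher in all 3 XEN cultures, against 34% and 39% of all tested probe sets. By limma 1 was called lower (Cdc20) and 0 higher, against 5.05% and 5.58%. Their median log2 difference was -0.47, and their summed signal was 7683 in ES cells and 4488 to 5543 in XEN cells. Each of the 10 was above the limit on at least 1 array. Fibroblast markers, which feeder cells could add, summed to 1071 in ES cells and 702 to 834 in XEN cells over 10 genes. Of these, 3 were below the limit on every array. By limma 1 fell and 0 rose, against 5.05% and 5.58%. At an unadjusted p under 0.05, 4 were lower and 1 higher, against 14.5% and 15.1%. The ES sum rested largely on Tagln, with 538 in ES cells and 37.7, 214 and 36.1 in the XEN cultures. Col1a2 ran the other way, with 206 against 352, 353 and 403. Of the 10, 5 lay lower and 3 higher in all 3 XEN cultures, against 34% and 39% of all tested probe sets. The part of proliferation and of feeder cells in the proteasome values was not tested. For 12 second probe sets of the 44 genes, 7 could be tested, 6 had the direction of the first and 0 passed the test. Of the 44 probe sets read, 5 carry the suffix f, 2 the suffix r and 1 the suffix s, which mark shared probes or relaxed rules of probe choice.

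The second question was whether the enzymes that attach, direct and remove ubiquitin moved with the proteasome. They were mixed: of 72 genes 32 (44.4%) lay lower in all 3 XEN cultures and 17 (23.6%) higher, against 34% and 39% of all tested probe sets. Their median log2 difference was -0.11, between the -0.66 of the proteasome genes and the 0.05 of all tested probe sets. By limma 5 fell (the E2 enzymes Ube2t and Ube2s, the cullin Cul2, and the deubiquitinases Usp48 and Uchl1) and 1 rose (Cul1). That is 6.94% lower and 1.39% higher, against 5.05% and 5.58% of all tested probe sets. At least 2-fold in all 3 cultures, 7 were lower and 1 higher, against 7.74% and 8.13% of tested probe sets. The shares called are of all 72 genes, of which 61 were tested, while this background is of tested probe sets only. Over all probe sets, tested or not, 3.49% were called lower and 3.86% higher. On either base the share called higher was below the background. The share called lower was above it but rests on 5 genes. The 11 below the background limit on every array were Cul7, Fbxl12, Fbxl15, Ube2l6, Ube2w and 6 Usp genes. Of the 72 probe sets read, 2 carry the suffix f, 2 the suffix g, 4 the suffix r and 2 the suffix s. For 28 further probe sets of the 72 genes, 20 could be tested and 15 had the direction of the first. By limma 0 of them were called lower and 1 higher. The difference between this group and the proteasome genes was not tested, since genes are not replicates.

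**Figure D2:**
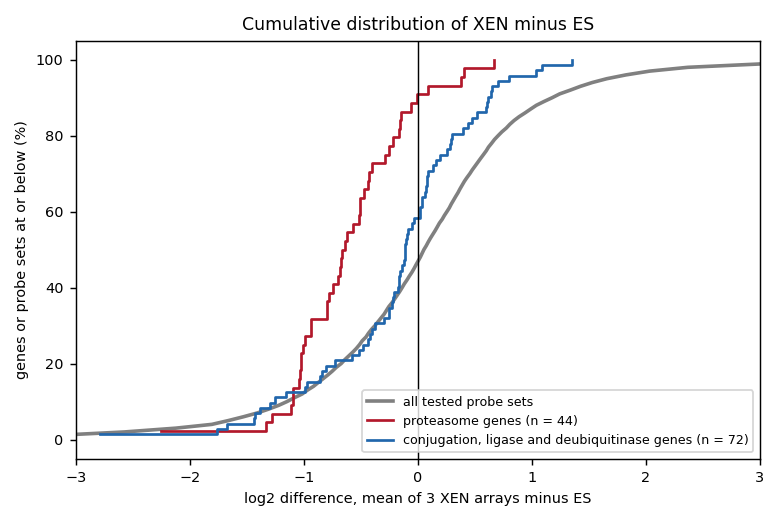
Cumulative share of genes or probe sets (vertical axis, percent) at or below each log2 difference, XEN minus ES (horizontal axis), for the proteasome genes, the conjugation, ligase and deubiquitinase genes and all tested probe sets. The proteasome curve lies to the left with its median at -0.66, and the curve of the other members runs near that of all tested probe sets below 0 and to its left above 0, with its median at -0.11.

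Ube2s and Ube2t were the E2 enzymes that fell. Ube2s extends ubiquitin chains on substrates of the anaphase promoting complex, the ligase that drives exit from mitosis, and it gave 763 in ES cells and 344, 266 and 256 in the XEN cultures. Ube2t is the E2 of the Fanconi anemia DNA repair pathway, and it gave 313 in ES cells and 102, 113 and 114 in the XEN cultures. For both, the 3 XEN values lay together and far below ES. The XEN mean of Ube2s was 288 ± 48.1 (SD, n = 3; log2 difference -1.38 ± 0.30, limma adjusted p = 0.0421), and that of Ube2t was 109 ± 6.32 (-1.43 ± 0.26, adjusted p = 0.0294). Without IM8A1-I or IM8A1-II the log2 difference was -1.51 and -1.33 for Ube2s, and -1.39 and -1.45 for Ube2t. Leaving out IM8A1-I or IM8A1-II ended both calls (adjusted p = 0.0773 and 0.104 for Ube2s, 0.0858 and 0.0741 for Ube2t).

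The promoters of both E2 genes and of Uchl1, a deubiquitinase that also fell, are shown from RefSeq (build GRCm38.p6) in the same way. They were searched for the cell cycle homology region TTTGAA, found in promoters of genes of late cell cycle, and for the antioxidant response core, and either would stand in capitals. Ube2s lies at chr7:4812291-4812590, minus strand, Ube2t at chr1:134962315-134962614, plus strand, and Uchl1 at chr5:66675871-66676170, plus strand.
Ube2s: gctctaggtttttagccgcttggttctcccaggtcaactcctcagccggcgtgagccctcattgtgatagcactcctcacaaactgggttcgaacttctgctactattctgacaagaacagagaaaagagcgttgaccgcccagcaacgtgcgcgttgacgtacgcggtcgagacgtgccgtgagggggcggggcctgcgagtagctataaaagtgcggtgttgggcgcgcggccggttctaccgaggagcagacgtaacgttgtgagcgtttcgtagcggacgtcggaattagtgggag
Ube2t: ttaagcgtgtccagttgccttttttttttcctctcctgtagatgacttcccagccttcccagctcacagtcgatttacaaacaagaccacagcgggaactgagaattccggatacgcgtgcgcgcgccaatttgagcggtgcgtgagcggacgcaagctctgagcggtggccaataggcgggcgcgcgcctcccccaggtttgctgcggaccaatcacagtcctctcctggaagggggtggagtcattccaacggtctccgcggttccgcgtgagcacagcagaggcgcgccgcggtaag
Uchl1: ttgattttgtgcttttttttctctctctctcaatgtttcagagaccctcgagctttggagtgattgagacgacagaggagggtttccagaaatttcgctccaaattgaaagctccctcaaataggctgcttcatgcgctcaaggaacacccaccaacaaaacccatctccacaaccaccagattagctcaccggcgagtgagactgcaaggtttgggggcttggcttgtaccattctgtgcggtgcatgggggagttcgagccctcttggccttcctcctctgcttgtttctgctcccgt
These 3 windows hold 0 matches to either motif, which says only that these letters are not in this stretch. Over 67 windows of 51 conjugation, ligase and deubiquitinase genes, 11.94% held TTTGAA and 19.4% held the antioxidant response core, against 17.89% and 12.39% of all windows.

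**Figure D3:**
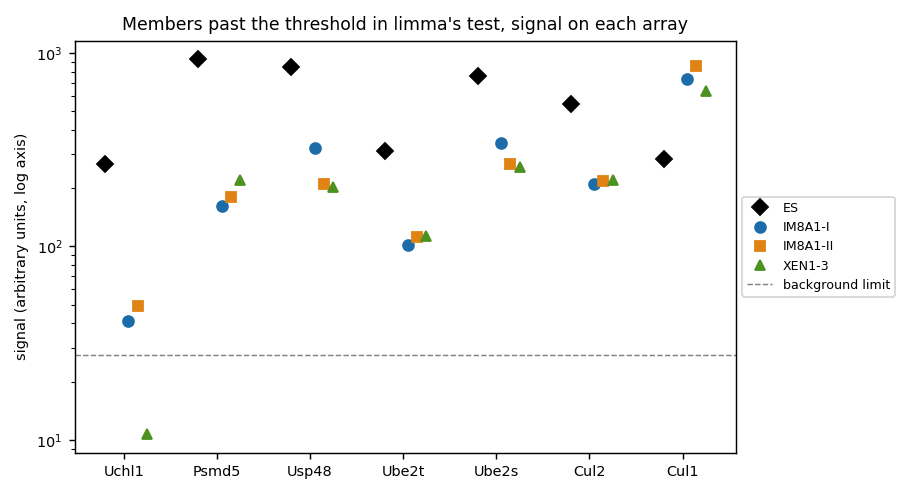
Signal on each array (vertical axis, logarithmic, in signal units) of the 7 members past the limma threshold, with the ES array and the 3 XEN cultures as separate points and the background limit of 27.3 units as a dashed line. Cul1 has its XEN points, at 634 to 863, above the ES point at 284, and the other 6 have all XEN points below ES.

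The E2 enzymes as a class lay on both sides of ES, with a median log2 difference of -0.15 over all 21 genes. Of these 9 (42.86%) lay lower and 4 (19.05%) higher in all 3 XEN cultures, against 34% and 39% of all tested probe sets. The share lower was thus above the background and the share higher below it. Ube2n, which pairs with Ube2v1 or Ube2v2 to build chains used in DNA repair and signalling, gave 1165 in ES cells and 559, 851 and 717 in the XEN cultures (limma adjusted p = 0.196). Ube2h, the E2 of the CTLH ligase, stood above ES, with 134 in ES cells and 234, 340 and 324 in the XEN cultures (1.09 ± 0.32, adjusted p = 0.0870). Ube2c, which starts the chains that Ube2s extends, was also above ES and not below it, with 51.2 in ES cells and 79.0, 96.2 and 83.6 in the XEN cultures (0.65 ± 0.28, adjusted p = 0.193). Neither Ube2h nor Ube2c passed the test, and the dim Ube2c probe set carries the suffix r. Ube2v2, which has no catalytic site of its own, gave 114 in ES cells and 199, 291 and 150, and its close relative Ube2v1 gave 467 against 467, 438 and 534. Ube3a, the ligase lost in Angelman syndrome, gave 68.9 in ES cells and 42.1, 41.2 and 45.1, all lower (-0.58 ± 0.29, adjusted p = 0.245).

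Cul1 and Cul2 changed in opposite directions. Cul1, the scaffold of the SCF ligases that act with Skp1 and F-box proteins, rose: it gave 284 in ES cells and 738, 863 and 634 in the XEN cultures. Cul2, the scaffold that joins the von Hippel-Lindau protein and other receptors through elongins, fell: it gave 548 in ES cells and 211, 219 and 219 in the XEN cultures. Neither gene's groups overlapped. The log2 difference was 1.35 ± 0.29 for Cul1 (XEN mean 745 ± 115, SD, n = 3; limma adjusted p = 0.0431) and -1.30 ± 0.26 for Cul2 (217 ± 4.88; adjusted p = 0.0345). Without IM8A1-I or IM8A1-II it was 1.35 and 1.24 for Cul1, and -1.28 and -1.31 for Cul2. Both calls ended when IM8A1-I or IM8A1-II was left out (adjusted p = 0.115 and 0.101 for Cul1, 0.103 and 0.0898 for Cul2), and Cul1 also passed in only 8 of 15 settings.

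Cul4a, the scaffold of ligases with the DNA damage protein Ddb1, gave 214 in ES cells and 303, 344 and 427 in the XEN cultures, all higher (0.70 ± 0.30, limma adjusted p = 0.190). Cul3, which works with BTB-domain receptors such as Keap1, gave 692 in ES cells and 874, 807 and 506, on both sides of ES. Its mean difference of 0.04 turned negative, to -0.11 without IM8A1-I and -0.06 without IM8A1-II.

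The 16 F-box genes had a median log2 difference of -0.04. Of these 6 (37.5%) lay lower and 4 (25%) higher in all 3 XEN cultures, against 34% and 39% of all tested probe sets. By limma 0 were called, against 5.05% lower and 5.58% higher. At an unadjusted p under 0.05, 1 was lower and 1 higher, against 14.5% and 15.1%. Fbxo15, a gene of undifferentiated ES cells and a target of Pou5f1 and Sox2, gave 846 in ES cells and 508, 222 and 251 in the XEN cultures. All XEN values were lower, with IM8A1-I apart from the other cultures, and the difference of -1.44 ± 0.50 was not called (adjusted p = 0.121). Fbxw4 was above ES in each culture, with 44.0 in ES cells and 127, 92.1 and 89.0 (1.04 ± 0.32, adjusted p = 0.0934). Fbxo6, which recognises glycoproteins, gave 551 in ES cells and 930, 870 and 622. Fbxw11, a receptor of phosphorylated substrates such as beta-catenin, gave 225 against 345, 433 and 288 (0.62, adjusted p = 0.259), while its second probe set gave 142 against 402, 347 and 324 and passed the test (1.27, adjusted p = 0.0437). Fbxw7, the receptor that marks cyclin E and Myc, gave 101 against 87.8, 69.5 and 84.7.

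**Figure D4:**
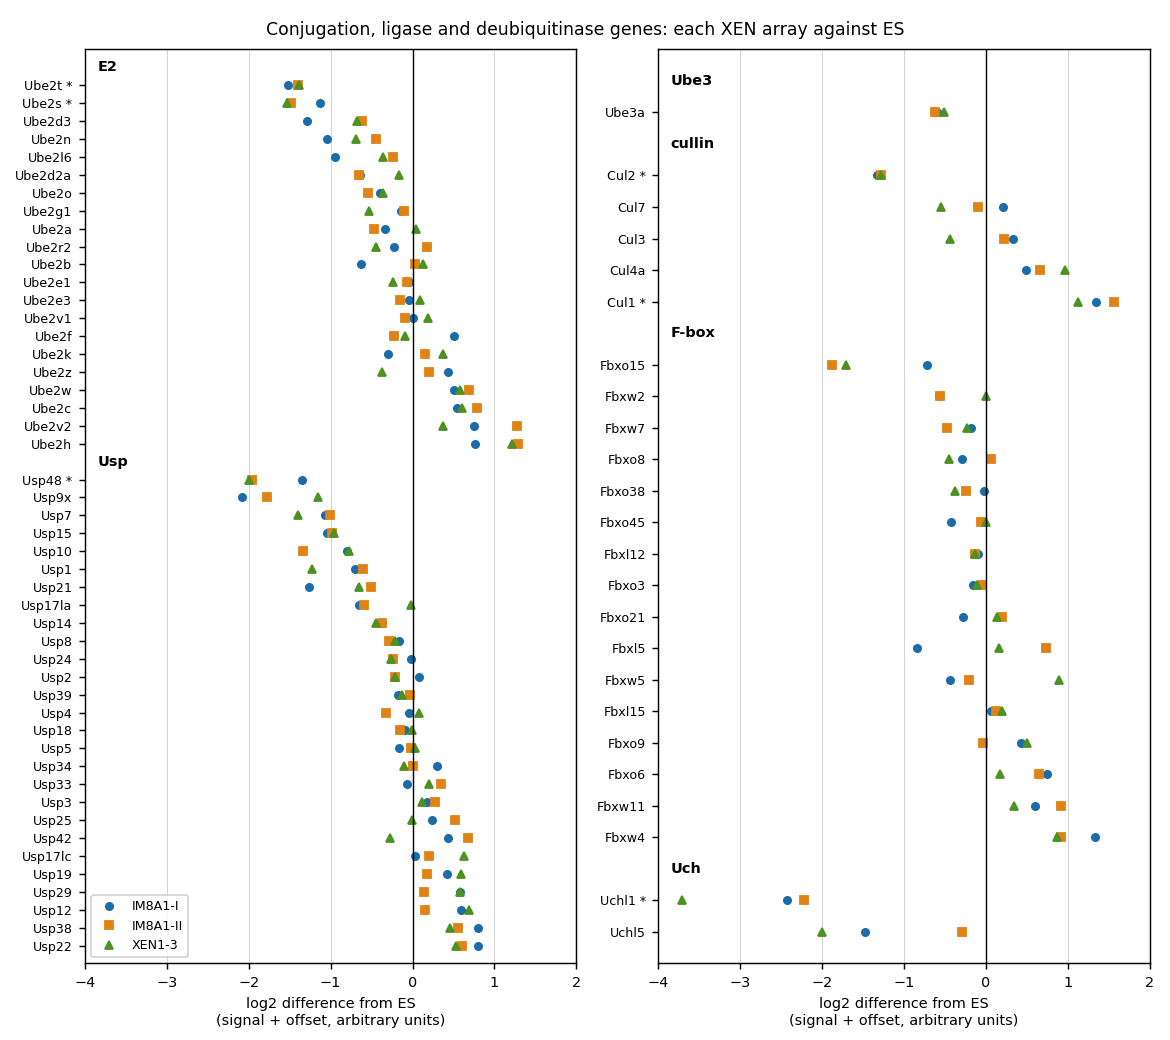
Log2 difference from ES (horizontal axis, signal plus offset) of the conjugation enzymes, ligase genes and deubiquitinases (1 line per gene, grouped by role), with 1 point for each XEN culture; asterisks mark the members past the limma threshold. Points lie on both sides of 0 in every class except Ube3a and the Uch pair, and the points of Uchl1 lie farthest to the left, around its mean of -2.79.

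Of 29 deubiquitinases, 15 (51.7%) lay lower and 7 (24.1%) higher in all 3 XEN cultures, against 34% and 39% of all tested probe sets. The median of the 29 was -0.11. By limma 2 (6.90%) were called lower, Usp48 and Uchl1, and 0 higher, against 5.05% and 5.58%. Usp48, an enzyme of the nucleus, gave 844 in ES cells and 325, 210 and 204 in the XEN cultures. Uchl1, the small hydrolase abundant in neurons and germ cells, gave 268 in ES cells and 41.1, 49.4 and 10.7 in the XEN cultures, the last of which was below the background limit. In both genes every XEN value was far under the ES value. The log2 differences were -1.77 ± 0.35 for Usp48 (XEN mean 246 ± 68.1, SD, n = 3; limma adjusted p = 0.0351) and -2.79 ± 0.62 for Uchl1 (33.7 ± 20.4; adjusted p = 0.0458). Usp48 lost its call without IM8A1-II (adjusted p = 0.0843), and Uchl1 without IM8A1-I (0.0784) or IM8A1-II (0.0554), and Uchl1 passed in 7 of 15 settings.

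Usp7 and Usp9x were also at least 2-fold lower in every XEN culture, yet missed the threshold. Usp7, which stabilises Mdm2 and p53, gave 1066 in ES cells and 504, 523 and 397 in the XEN cultures (-1.16 ± 0.29, limma adjusted p = 0.0599). Its second probe set showed no such difference, with 74.9 in ES cells and 75.4, 66.1 and 80.8 in the XEN cultures. Usp9x, the X-linked enzyme that keeps several signalling and adhesion proteins from degradation, gave 550 in ES cells and 122, 153 and 241 (-1.67 ± 0.41, adjusted p = 0.0578). Its adjusted p was 0.116 without IM8A1-I, 0.124 without IM8A1-II and 0.00813 without XEN1-3, which leaves 1 line. Usp9x had its highest XEN value in XEN1-3, and Usp7 its lowest. Usp15 gave 437 against 207, 216 and 220 on its first probe set (adjusted p = 0.0655), but its second ran the other way, with 32.5 against 51.9, 65.1 and 85.6.

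The deubiquitinases Usp14, Uchl5 and Psmd14 work on the proteasome itself, and none of the 3 passed the test. Usp14, which docks on the cap and trims chains, gave 444 in ES cells and 340, 340 and 323 in the XEN cultures, a small and even difference (-0.40 ± 0.26, limma adjusted p = 0.346). Uchl5, another cap-bound trimmer, gave 526 in ES cells and 182, 429 and 123, all lower but widely spread (-1.26 ± 0.65, adjusted p = 0.257). Psmd14, the lid enzyme, was described with the cap. Usp5, which takes apart free ubiquitin chains, overlapped between the groups, with 328 in ES cells and 291, 325 and 335. Usp22, the deubiquitinase of the SAGA chromatin complex, was above ES in all 3 cultures, with 124 in ES cells and 223, 193 and 183 (0.64 ± 0.28, adjusted p = 0.187). Usp18, which removes Isg15 from proteins, was one of the 6 Usp genes below the limit on every array.

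The third question was how far the members varied among XEN cells, between the same line in 2 culture conditions and between 2 lines in the same condition. Each comparison is 1 array against 1, so there is no test, and both use IM8A1-I. Proteasome genes stayed within 2-fold with 1 exception: in IM8A1-II over IM8A1-I, 0 of 42 were 2-fold apart, with a median log2 difference of 0.17 (27 higher, 15 lower). In XEN1-3 over IM8A1-I, 1 of 42 was, Psmb6 at -1.25, with a median of 0.05. In the background, 3.7% of probe sets were at least 2-fold higher and 2.57% lower for the first pair, and 4.74% and 4.67% for the second.

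Of the 61 conjugation, ligase and deubiquitinase genes with an array at the limit, 2 were at least 2-fold higher and 1 lower in IM8A1-II than in IM8A1-I. The higher ones were Fbxl5, the iron-sensing receptor that marks iron regulatory protein, with 14.9 in IM8A1-I and 65.2 in IM8A1-II (1.58), and Uchl5, with 182 and 429 (1.19). The IM8A1-I value of Fbxl5 was below the background limit, and its probe set carries the suffix r. The lower one was Fbxo15, with 508 and 222 (-1.16). In XEN1-3 over IM8A1-I, 1 was higher, Fbxw5, with 377 against 144 (1.33), and 1 lower, Uchl1, with 10.7 against 41.1 (-1.28). Line, strain and passage differ together in this pair and cannot be told apart. Psma5 and Psme1 were the proteasome genes highest in IM8A1-II over IM8A1-I, by 0.90 and 0.95, short of 2-fold.

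**Figure D5:**
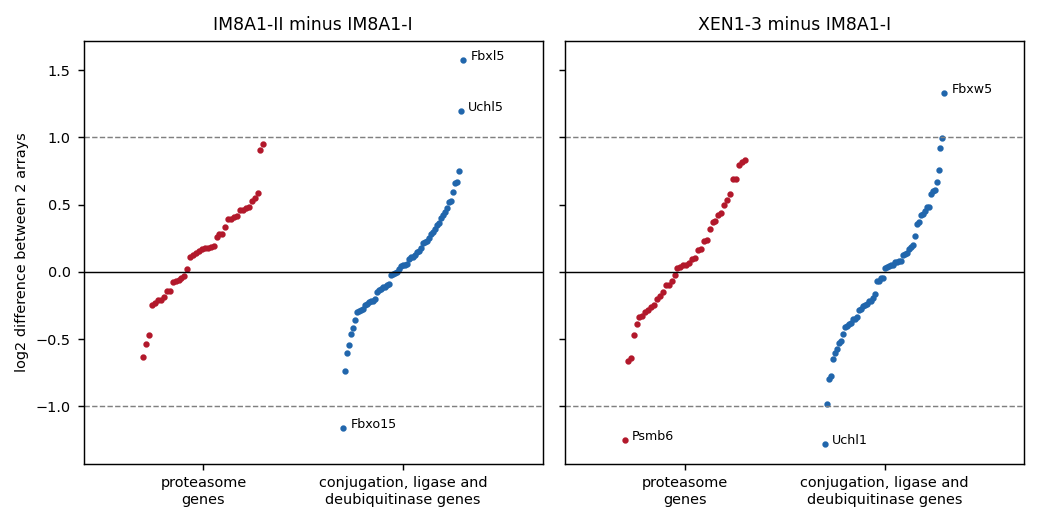
Log2 difference between 2 XEN arrays (vertical axis) of each member with an array at the limit, IM8A1-II minus IM8A1-I on the left and XEN1-3 minus IM8A1-I on the right; points are single genes in rank order within the proteasome genes and the other members, and dashed lines mark 2-fold. The points outside the dashed lines are named, with Fbxl5, Uchl5 and Fbxo15 on the left and Fbxw5, Psmb6 and Uchl1 on the right.

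Genes of the pathway outside the naming rule were read from a separate list of ubiquitin and its relatives, activating enzymes, adaptors, the anaphase promoting complex, the COP9 signalosome, other ligases, shuttling factors and assembly factors. Of 136 listed symbols 83 genes were on the array. By limma 2 rose (2.41%) and 7 fell (8.43%), against 5.58% and 5.05% of all tested probe sets, and the median log2 difference was -0.19, beside 0.05 over all tested probe sets. Skp1, the adaptor between Cul1 and F-box proteins, fell while Cul1 rose, with 1079 in ES cells and 367, 463 and 422 in the XEN cultures (-1.35 ± 0.27, adjusted p = 0.0364). Cdc20, the activator of the anaphase promoting complex, fell beside Ube2s, with 1858 in ES cells and 802, 684 and 550 (-1.46 ± 0.31, adjusted p = 0.0410). Without IM8A1-I these adjusted p-values were 0.107 and 0.0771, and without IM8A1-II 0.0732 and 0.0846.

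Ubqln2, a shuttle that carries ubiquitinated proteins to the proteasome, rose, with 201 in ES cells and 1569, 1971 and 942 in the XEN cultures (2.77 ± 0.44, limma adjusted p = 0.0208; 0.0597 without IM8A1-I). Otub1, a deubiquitinase that also blocks E2 enzymes such as Ube2n, rose from 52.2 to 196, 180 and 162 (1.59 ± 0.27, adjusted p = 0.0246). Its call was lost without IM8A1-I (0.0723) or IM8A1-II (0.0662). Socs2, the receptor of a cullin ligase for cytokine and growth hormone signalling, fell from 506 in ES cells to 37.5, 38.8 and 9.20 (-3.84 ± 0.58, adjusted p = 0.0178). Trim28, a ligase and chromatin corepressor of pluripotent cells, fell from 7092 to 2696, 2063 and 2812 (-1.50 ± 0.28, adjusted p = 0.0312; 0.0792 without IM8A1-I). The groups did not overlap for any of these 4 genes.

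Nedd4, a HECT-type ligase, fell from 1239 in ES cells to 576, 538 and 567 (-1.13 ± 0.25, limma adjusted p = 0.0461), a call that ended without IM8A1-I (0.127) or IM8A1-II (0.109), and with both its probe sets averaged (0.131). Isg15, the interferon-induced ubiquitin relative, fell from 61.0 to values below the background limit in every XEN culture, at least 2.23-fold when the XEN level is set at the limit of 27.3 units, and lost its call without IM8A1-I (0.0910) or IM8A1-II (0.0898). Cops6 of the COP9 signalosome, which removes Nedd8 from cullins, was the seventh that fell. Nedd8 itself, the ubiquitin relative that switches cullins on, gave 547 in ES cells and 558, 554 and 514 in the XEN cultures, on both sides of ES (-0.014 ± 0.26). The 6 listed genes of proteasome assembly and regulation split evenly, with 3 lower and 3 higher in all 3 XEN cultures, against 34% and 39% of all tested probe sets. Their median was -0.073 and 0 were called by limma, against 5.05% lower and 5.58% higher. At an unadjusted p under 0.05, 1 was lower and 1 higher, against 14.5% and 15.1%. Pomp, the chaperone that matures the 20S core, was among the lower ones, with 1080 in ES cells and 605, 643 and 674 in the XEN cultures (-0.75 ± 0.25). Sem1, a small subunit of the 19S cap, was among the higher ones, with 651 in ES cells and 930, 748 and 961 in the XEN cultures (0.42 ± 0.28).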

How the data were processed

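Total RNA of 4 cultures was measured on 4 arrays. The deposited values are linear intensities of probe sets, and no label or file header used here names the software that made them. The authors' run records gave chip lots and messages, per the file headers. Of 12488 probe sets 66 controls were left out, and 10833 of the others had 1 gene symbol, 396 several and 1193 none; names came from GEO's platform annotation. The 116 members had 156 probe sets, and 5 more with several symbols were left out.

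Arrays were brought to a common 2% trimmed mean, the 25th percentile of all values (10.5 units) was added, and log2 values were fitted in limma 3.58.1 (R 4.3.3; lmFit and eBayes, trend on, 2 residual degrees of freedom, two-sided), tested on simulated data. Probe sets with at least 1 array at the 40th percentile (27.3 units) were tested, with Benjamini-Hochberg adjustment over all 8582.

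Named genes were the members past the threshold, in each role class the brightest and the 2 most extreme in each direction, the 5 most extreme in each direction for each pair of XEN cultures, 15 genes of interest, and at most 6 other pathway genes in each direction; further genes were named after their values were seen. The members and lists were chosen with earlier results of these data known. Alternatives changed the offset, floor, filter, scaling, variance model, choice of probe set, and samples. RefSeq promoters matched 88 members. Trophoblast markers summed to 928 units in ES and 84.1 to 129 in XEN cells, and Tfap2c held 767 units of the ES sum. Of the 7, 3 were below the limit on every array and 1 was called lower. Germ layer markers summed to 273 and 206 to 422. Of the 6, 2 were below the limit on every array and 0 were called (at an unadjusted p under 0.05, 1 lower). Of all tested probe sets 5.05% were called lower and 5.58% higher, and 14.5% were lower at the unadjusted p.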

Additional observations from a re-analysis of the deposited data

How the results depend on the processing

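Of 923 values of 66 named genes under the alternatives, 837 kept their direction and side of the threshold, 60 lost it, 5 gained it and 21 reversed. All 21 were differences near 0 that had not passed the test. Fbxl5 went to -0.024 with an offset of the 5th percentile, -0.062 with median scaling, -0.044 with quantile normalization, and from -0.34 to 0.45 without 1 replicate. Cul3 went to -0.064 with median scaling, -0.084 with the IM8A1 cultures averaged, and from -0.11 to 0.28 without 1 replicate. Fbxw5 went to -0.015 with median scaling, from -0.32 to 0.34 without 1 replicate and -0.12 over the mean of all its probe sets. Ube2f went to -0.018 with median scaling, -0.016 with quantile normalization and from -0.16 to 0.21 without 1 replicate. Ube2z went to -0.011 with median scaling, -0.026 with the IM8A1 cultures averaged and from -0.083 to 0.32 without 1 replicate. Psmg4 went to 0.030 with the IM8A1 cultures averaged and from -0.093 to 0.066 without 1 replicate, and Psmc1 to 0.065 without XEN1-3, at the top of its range. The cause was not tested.

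The proteasome median moved between -0.60 (offset of the 50th percentile, or the mean of all probe sets) and -0.76 (median scaling), and from -0.70 to -0.56 when 1 XEN replicate was left out. Proteasome genes called lower were 2 with median scaling and from 1 to 3 without 1 replicate, and 0 were called higher in any setting run. The median of the other members was -0.082 with the 50th percentile, -0.049 with values raised to the limit and -0.20 with median scaling. Of these genes 3 were called lower without a variance trend or with values raised to the limit, 2 with no filter, 1 with the IM8A1 cultures averaged, and 0 to 6 without 1 replicate. In those 4 settings and with median scaling 0 were called higher, and 0 to 1 without 1 replicate. Other pathway genes called higher were 1 with values raised to the limit and 0 to 4 without 1 replicate. Those called lower were 4 without a trend, with 2 arrays at the limit or with values raised to it, 3 without a filter, 2 with the IM8A1 cultures averaged, and 1 to 9 without 1 replicate. Among all probe sets 240 were higher with values raised to the limit and 246 lower with 2 arrays at the limit. Without 1 replicate 190 to 797 were higher and 179 to 725 lower. Members 2-fold apart between XEN1-3 and IM8A1-I were 5, not 3, with the 5th percentile or the mean of all probe sets. No paired analysis was possible because ES cells had 1 sample. Signal near the background limit restricts what can be said of the 13 members not tested.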
